A study of Sus scrofa with 4 samples.

Results

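The 8 genes described here act at the egg's side of fertilization, from the first contact with sperm to the start of development. They were chosen by name, as the rows of the expression table whose gene symbol was ASTL, IZUMO1R, CD9, CD81, ITPR1, STIM1, ORAI1 or CAMK2G, and each symbol had exactly 1 row with values among the 16050 genes with values. RNA was sequenced from porcine oocytes labelled as being at metaphase II, the stage at which a mature egg waits for sperm, to ask which transcripts differ after exposure to excess copper (Cu). Cumulus-oocyte complexes from slaughterhouse ovaries were matured in vitro for up to 44 h and each library held 3 oocytes, whose donor animals are not given. The control group had no added Cu and is represented by Control 1 and Control 2, and the Cu-exposed group had 25 μg/mL Cu, given as copper sulfate, in the maturation medium and is represented by Cu 1 and Cu 3. Both groups shared the same medium, with porcine follicular fluid, EGF, insulin and the gonadotropins hCG and eCG. The labels do not say whether the libraries of a group came from separate cultures, so every p-value measures only the spread between these libraries.

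Fertilization in mammals joins 3 steps that these genes serve. IZUMO1R, also called JUNO, is the receptor on the egg membrane that binds IZUMO1 on the sperm head, and the tetraspanins CD9 and CD81 organize the membrane patches in which sperm and egg fuse. Fusion delivers a sperm phospholipase that makes inositol trisphosphate, and the receptor channel ITPR1 then releases calcium from the endoplasmic reticulum in repeated waves, while STIM1 senses the emptied store and ORAI1 is the plasma membrane channel it can open to refill it. Each wave activates calmodulin-dependent protein kinase II, whose gamma chain is CAMK2G, and this ends the metaphase II arrest. Calcium also makes the cortical granules release ovastacin, the product of ASTL, which cleaves the zona pellucida protein ZP2 so that no further sperm bind.

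The values are FPKM, which scale the fragments of a gene to its transcript length and to all mapped fragments of the library. Levels can thus be compared between genes per length, but how many reads lie behind them is unknown. The oocyte identity was clear: 19 to 20 of the 20 oocyte marker genes with values reached 1 FPKM in each library, and BTG4 alone had 16671 to 26512 FPKM. Cumulus and granulosa cell markers summed to 13.4 and 21.1 FPKM in Control 1 and 2 and to 30.6 and 27.6 FPKM in Cu 1 and 3 over the 15 of 21 genes with values, of which 2 to 3 reached 1 FPKM in a library, and most of that sum was FST and SERPINE2. SERPINE2 did not overlap between the groups, with 1.59 FPKM in Control 1 and 2.93 in Control 2, against 14.2 in Cu 1 and 12.7 in Cu 3. Both Cu libraries were likewise above both Control libraries in 25.4% of all tested genes. The groups overlapped for FST and VCAN, the other tested markers of this list. The part of SERPINE2 in the results below was not tested. The steroidogenic markers CYP19A1, STAR and HSD3B1 stayed between 0 and 0.41 FPKM and AMH was listed at 0 in every library. Leukocyte and blood cell markers, 3 of 9 with values, summed to between 0.09 and 2.16 FPKM, with the highest sum in Cu 1. Cu 1 stood apart from the other 3 libraries. It was the highest of the 4 in 51.0% of the 8541 tested genes, against 12.3% for Control 1, 17.4% for Control 2 and 19.2% for Cu 3, and it had 9364 genes at 1 FPKM or more against 7923 to 8162 in the others. Across the tested genes, which are not independent replicates, its Pearson correlations on log2(FPKM + 1) with the other libraries were 0.918 to 0.923, and those among the other 3 were 0.959 to 0.976. The fold changes of the tested members, the list medians and the list genes that passed an unadjusted p of 0.05 are therefore given with and without Cu 1. Because each library pools few cells and was primed from poly(A) tails, fewer transcripts per oocyte, shorter tails and a smaller share of oocytes with a transcript cannot be told apart.

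The 8 genes covered a wide span of levels. CAMK2G was the highest, with a median of 53.4 FPKM over the 4 libraries, followed by CD81 with 18.5, ASTL with 4.13, ITPR1 with 2.195, IZUMO1R with 1.75, ORAI1 with 0.74, STIM1 with 0.69 and CD9 with 0.02 FPKM. CAMK2G lay above CD81, ASTL above ITPR1 and STIM1 above CD9 in 4 of 4 libraries. CD81 lay above ASTL and ITPR1 above IZUMO1R in 3 of 4. The order of IZUMO1R, ORAI1 and STIM1 was not fixed, since each of these genes lay above the next in only 2 of 4 libraries. For every pair of neighbours in the order, the ranges of the 4 libraries overlapped. CAMK2G, CD81, ITPR1 and ASTL were at 1 FPKM or more in all 4 libraries. Genes were compared between the groups on log2(FPKM + 1), with limma's moderated test, if 2 or more libraries reached 1 FPKM, as was so for 5 of the 8. CD9, STIM1 and ORAI1 reached 1 FPKM in at most 1 library and were not tested.

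**Figure D1:**
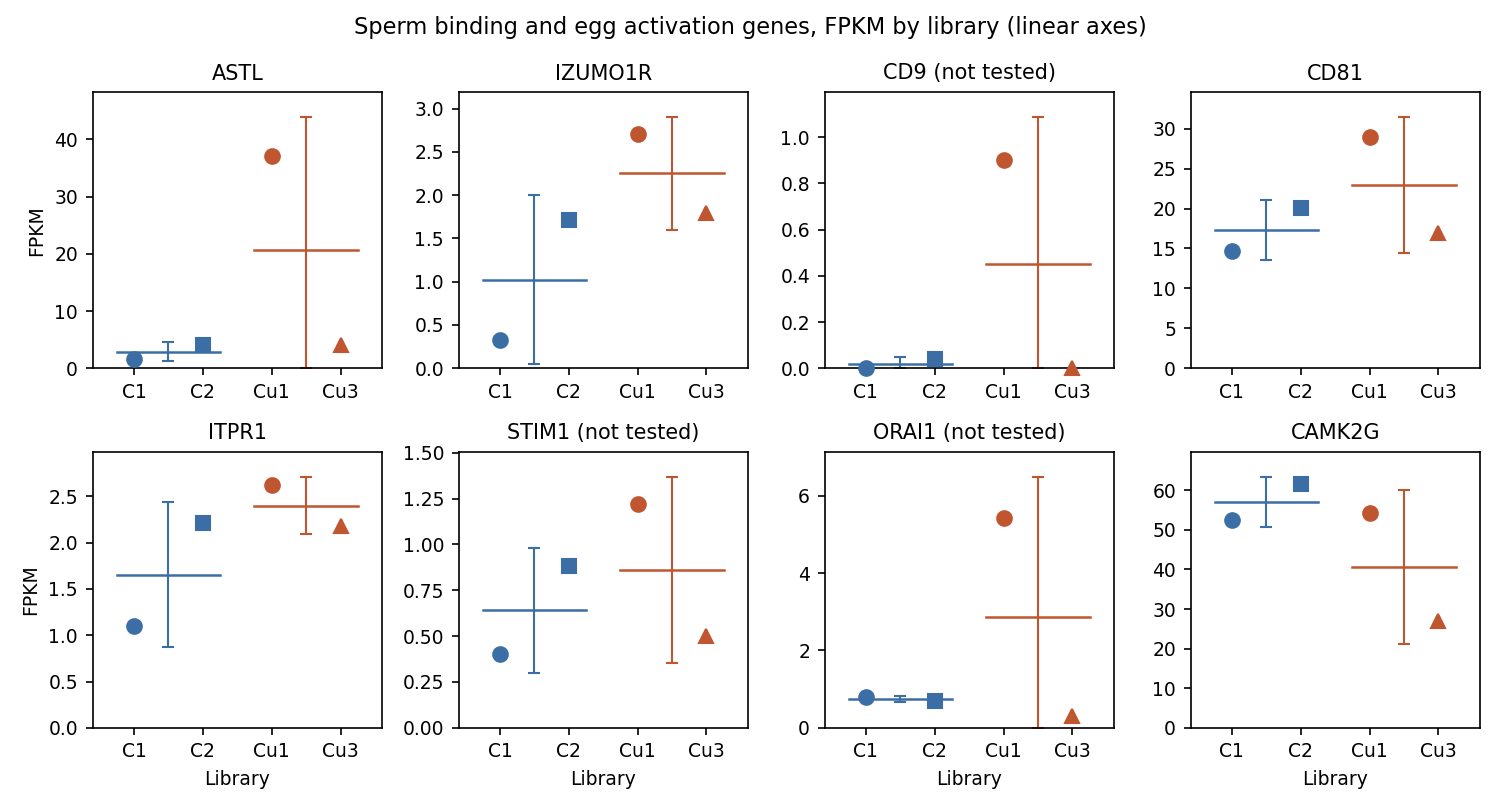
FPKM of the 8 genes in the 4 libraries, with a linear axis from 0 for each gene. Points are single libraries (C1 and C2 are Control 1 and 2), and horizontal lines and bars are the group mean and SD (n = 2, bars cut at 0). Cu 1 is the highest point for every gene but CAMK2G, and for ASTL, CD9 and ORAI1 it lies far above the other 3.

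None of the 5 tested genes passed the test between the groups, given the spread between libraries. The number with an unadjusted p of 0.05 or less by limma was 0 of 5, where 7.01% of all tested genes had one, and no gene of the table passed an adjusted p of 0.05 (0% of 8541, smallest adjusted p 0.631 by limma). ASTL, IZUMO1R, CD81 and ITPR1 had log2 fold changes above 0, as did 64.3% of all tested genes, and CAMK2G had one below 0. The median over the 5 was 0.39, against 0.16 over all tested genes. In 1 of the 5, IZUMO1R, neither Cu library fell below a Control library (25.4% of all tested genes), and the groups overlapped in the other 4 (61.2% of all tested genes). Upper-quartile, median-of-ratios and quantile scaling left each of the 5 directions as it was. Of all 8 genes, 7 were highest in Cu 1, which was the case for 49.5% of all genes with values. Control 1 was the lowest library in 4 of the 5 tested genes, against 30.0% of all tested genes. With 2 libraries a group, an exact two-sided permutation test of a single gene cannot give a p below 0.333, so it was not used for calls.

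At the step of sperm binding, IZUMO1R (identifier 102161281, chromosome 9, 26516091 to 26520949 on Sscrofa11.1) was weakly expressed. It had 0.33 FPKM in Control 1 and 1.71 in Control 2, against 2.71 in Cu 1 and 1.79 in Cu 3. The groups did not overlap, but Cu 3 exceeded Control 2 by little, and Control 1 was the low library. The means were 1.02 ± 0.98 FPKM for Control and 2.25 ± 0.65 FPKM for Cu (SD, n = 2 each). The log2 fold change was 0.76 (standard error, SE, 0.46, 95% interval -0.35 to 1.88, limma adjusted p = 0.75). Without Control 1 it was 0.25, and without Cu 1 it was 0.56. The authors' mean FPKM over the group, which by its decimals appears to include a further library not analysed here, was 0.85 for Control and 1.87 for Cu. IZUMO1R belongs to the folate receptor family by sequence, although it does not bind folate, and its relatives FOLR1 and FOLR2 were lower still, with 0 to 0.63 FPKM.

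At the step of membrane fusion, the tetraspanins CD9 and CD81 differed strongly in level. CD81 (identifier 780427, chromosome 2, 1625728 to 1641662) had 14.7 FPKM in Control 1 and 20.0 in Control 2, against 29.0 in Cu 1 and 17.0 in Cu 3. The highest value was that of Cu 1, and Cu 3 lay between the Control libraries. CD9 (identifier 397067, chromosome 5, 64420177 to 64459783) had 0.04 FPKM in Control 2 and 0.90 FPKM in Cu 1 and was listed at 0 in Control 1 and Cu 3. CD81 thus stood above CD9 in each of the 4 libraries, at percentiles of 81.1 to 85.1 among all genes with values, whereas CD9 was at a percentile of 40.4 in Cu 1 and at 19.8 or less in the others. For CD81 the log2 fold change was 0.36 (SE 0.40, 95% interval -0.63 to 1.34, limma adjusted p = 0.848), and it was -0.014 without Cu 1 and 0.72 without Cu 3. CD9 had no test, and its authors' means were 0.013 FPKM for Control and 0.3 FPKM for Cu.

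CD81 was one of the more abundant tetraspanins, a family of membrane proteins that gather partners into webs. Among the 26 tetraspanin genes with values, it ranked between the 3rd and the 4th by FPKM in each library. TSPAN3 was the highest, with 224 FPKM in Control 1 and 623 in Control 2, against 385 in Cu 1 and 322 in Cu 3, which was 68.7% to 86.6% of the family's summed FPKM. CD63, a tetraspanin of late endosomes and exosomes, had 17.6 to 38.0 FPKM and TSPAN15 18.03 to 33.4 FPKM, close to CD81. CD151, a partner of integrins, had at most 0.03 FPKM. These tetraspanins, and the relatives of the other members named here (FOLR1, FOLR2, MEP1B, ITPR2, ITPR3, RYR2, STIM2, ORAI2, ORAI3 and the other kinase chains), were added to the description after the values of the members had been seen.

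The gene of the block to further sperm had the largest log2 fold change of the 5 tested genes, and it rested on 1 library. ASTL (identifier 100739686, chromosome 3, 47058104 to 47071681) had 1.69 FPKM in Control 1 and 4.14 in Control 2, against 37.1 in Cu 1 and 4.12 in Cu 3. Cu 1 was high and Cu 3 was no higher than Control 2, so the groups overlapped. Cu 1 had 12.7 times and Cu 3 1.41 times the Control mean of 2.92 ± 1.73 FPKM (SD, n = 2), and the Cu libraries differed from each other 8.995-fold. The log2 fold change was 1.91 (SE 0.94, 95% interval -0.40 to 4.22, limma adjusted p = 0.713). Without Cu 1 it was 0.46, with an adjusted p of 0.686 by limma. Without Cu 3 it was 3.36 with an adjusted p of 6.6e-05 by limma, a fit in which the spread comes from the Control libraries alone and Cu 1 is assumed to vary as they do. On the log2(FPKM + 1) scale Cu 1 exceeded the next highest library by 2.89, a gap that 23 of the 8541 tested genes surpassed. The authors' means were 3.93 FPKM for Control and 15.4 FPKM for Cu. Of the 20 oocyte markers, 11 were also highest in Cu 1, near the share of all tested genes.

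Among the astacin proteases, the family of zinc metalloproteases to which ovastacin belongs, ASTL was not the highest gene outside Cu 1. MEP1B, which encodes the beta subunit of meprin, had 9.77 FPKM in Control 1 and 10.9 in Control 2, against 12.7 in Cu 1 and 13.4 in Cu 3, a log2 fold change of 0.31 (limma adjusted p = 0.842), and lay above ASTL in Control 1, Control 2 and Cu 3. FETUB encodes fetuin-B, the liver-derived inhibitor that keeps ovastacin inactive before fertilization, and it had 3.77 FPKM in Control 1 and 4.51 in Control 2, against 9.47 in Cu 1 and 2.69 in Cu 3. The substrate ZP2 had 495 and 991 FPKM in the Control libraries and 928 and 1198 FPKM in the Cu libraries, a log2 fold change of 0.59 with overlapping groups. FETUB and ZP2 were named after their values had been seen.

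At the step of calcium release, ITPR1 (identifier 397454, chromosome 13, 61068131 to 61398918, with 9 RefSeq transcripts) had 1.1 FPKM in Control 1 and 2.21 in Control 2, against 2.62 in Cu 1 and 2.18 in Cu 3. Control 1 was the low library and the other 3 were close together. The log2 fold change was 0.39 (SE 0.38, 95% interval -0.55 to 1.32, limma adjusted p = 0.828), and it was 0.0799 without Control 1 and 0.29 without Cu 1. ITPR1 was the most abundant of the 3 inositol trisphosphate receptors in every library, with 58.0% to 79.6% of their summed FPKM. ITPR3 followed with 0.65 and 0.65 FPKM in the Control libraries and 1.72 and 0.35 FPKM in the Cu libraries, and ITPR2 had 0.09 to 0.43 FPKM. RYR2, a ryanodine receptor and thus the other kind of store channel, had 0.93 to 1.28 FPKM, a log2 fold change of 0.062 and limma's adjusted p = 0.973. ITPR1 lay above RYR2 in each of the 4 libraries.

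The store sensor and the entry channel had low levels. STIM1 (identifier 100171399, chromosome 9, 6066612 to 6270090) had 0.40 FPKM in Control 1 and 0.88 in Control 2, against 1.22 in Cu 1 and 0.50 in Cu 3, with overlapping groups. Its relative STIM2, which responds to smaller losses of stored calcium, had 0.50 and 0.49 FPKM in the Control libraries and 0.99 and 1.02 FPKM in the Cu libraries. STIM1 was above STIM2 in Control 2 and Cu 1 and below it in Control 1 and Cu 3, so neither was the higher in all libraries. ORAI1 (identifier 100154923, chromosome 14, 31012212 to 31028008) had 0.79 FPKM in Control 1 and 0.69 in Control 2, against 5.43 in Cu 1 and 0.30 in Cu 3. Its 2 Cu libraries were the highest and the lowest of the 4 and differed 18.1-fold, so the Control libraries lay between them. ORAI2 and ORAI3 had at most 0.03 and 0.21 FPKM, and ORAI1 held 69.8% to 100% of the summed FPKM of the 3 channels. The authors' means for Control and Cu were 0.52 and 0.81 FPKM for STIM1 and 0.72 and 2.25 FPKM for ORAI1.

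**Figure D2:**
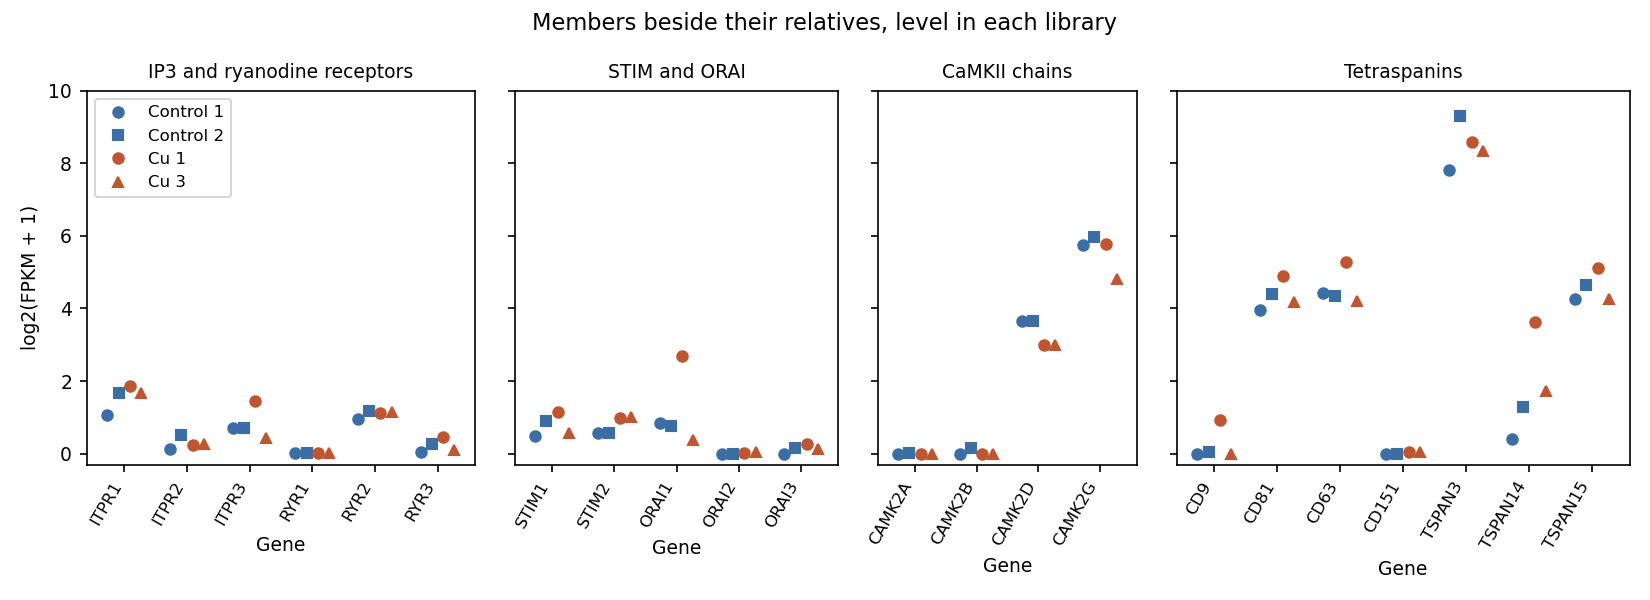
Levels of ITPR1, STIM1, ORAI1, CAMK2G, CD9 and CD81 beside relatives of each, as log2(FPKM + 1) in each library. CAMK2G, ITPR1 and ORAI1 are the highest of their chains, receptors and channels in all 4 libraries, STIM1 and STIM2 overlap in level, and CD81 lies near CD63 and TSPAN15 while CD9 is near 0.

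The effector kinase was the most abundant of the 8 genes and the only tested one with a lower mean in Cu. CAMK2G (identifier 397394, chromosome 14, 76535095 to 76632381, with 49 RefSeq transcripts that the table does not resolve) had 52.5 FPKM in Control 1 and 61.6 in Control 2, against 54.3 in Cu 1 and 26.9 in Cu 3. Cu 3 was the low library, and Cu 1 lay between the Control libraries. The means were 57.0 ± 6.37 FPKM for Control and 40.6 ± 19.4 FPKM for Cu (SD, n = 2 each). The log2 fold change was -0.56 (SE 0.41, 95% interval -1.57 to 0.45, limma adjusted p = 0.784). It was -0.066 without Cu 3 and -1.05 without Cu 1, where its unadjusted p was 0.0031 and its adjusted p 0.084 by limma. By the authors' means the direction was the opposite, with 42.4 FPKM for Control and 45.2 FPKM for Cu. CAMK2G made up 79.4% to 88.6% of the summed FPKM of the 4 kinase chains. CAMK2D was the only other chain above 0.11 FPKM in any library, with 11.5 and 11.7 FPKM in the Control libraries and 6.96 and 6.98 FPKM in the Cu libraries. For CAMK2D the Cu levels were below each Control level (13.4% of all tested genes), with a log2 fold change of -0.66 (limma adjusted p = 0.727).

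**Figure D3:**
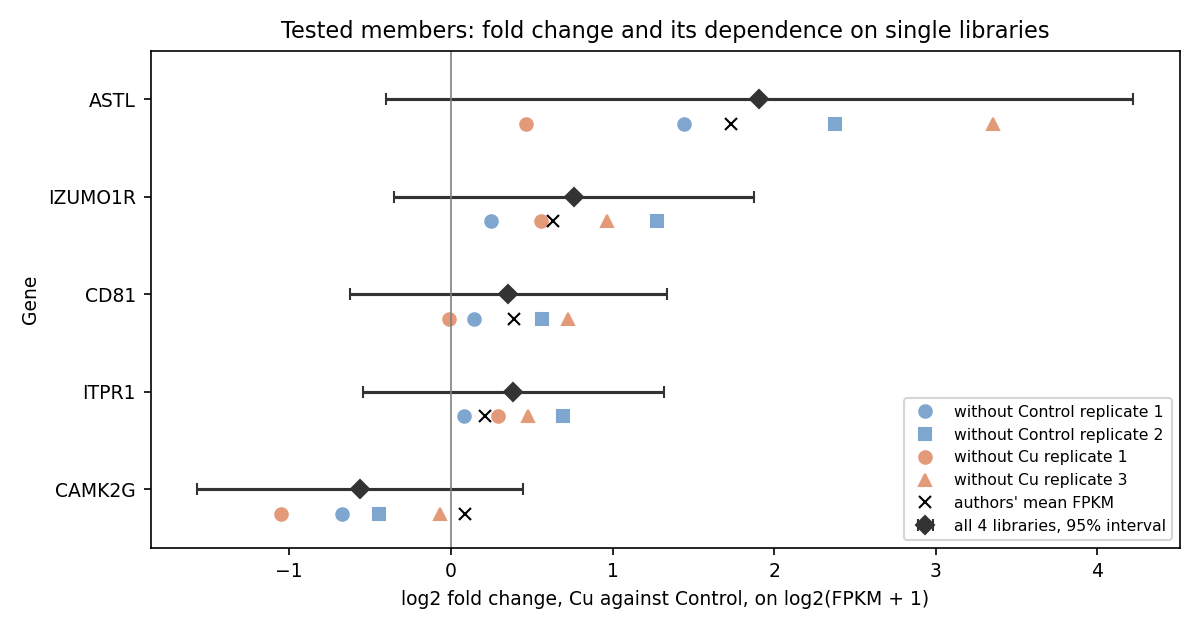
Log2 fold changes of the 5 tested genes, Cu against Control, on log2(FPKM + 1). Diamonds with bars are limma's estimate and its 95% interval over all 4 libraries, and the smaller marks below them are the estimate without 1 library or from the authors' means. Each interval includes 0, ASTL runs from 0.46 without Cu 1 to 3.36 without Cu 3, and CAMK2G crosses 0 only for the authors' means.

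The genes with the most similar levels over the 4 libraries were found by Euclidean distance on log2(FPKM + 1) among all tested genes. For ASTL they were LOC100513415 (distance 0.42) and HCRT (0.72), for IZUMO1R R3HDM2 (0.16) and GLT8D1 (0.32), for CD81 PRPF19 (0.22) and ZNF133 (0.23), for ITPR1 ZNF711 (0.091) and DKK4 (0.11), and for CAMK2G HEATR6 (0.20) and STK38 (0.24). The neighbours of ASTL had the same single high library, with 31.7 FPKM for LOC100513415 and 27.9 FPKM for HCRT in Cu 1 and at most 5.27 FPKM elsewhere. With 4 libraries, such likeness describes these values only.

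The partners of these genes were described through 5 lists written from textbook roles, with 122 tested genes in all. Of these, 8 (6.56%) had an unadjusted limma p of 0.05 or less and were higher in the libraries labelled Cu, beside 5.58% of all tested genes. The 8 include UNC13D, which reached 1 FPKM only in the Cu libraries. Another 3 (2.46%) were lower, beside 1.43% of all tested genes, and no list gene passed limma's adjusted p of 0.05. The counts moved with single libraries, and so did those of the whole table. Without Cu 1 there were 13 higher (10.7%) and 7 lower (5.74%) list genes, beside 8.69% and 6.81% of all tested genes. Without Cu 3 there were 33 higher (27.0%) and 9 lower (7.38%), beside 27.7% and 6.91% of all tested genes. Leaving out Control 1 or Control 2 lowered the list counts in both directions, as it did those of the whole table. Without Cu 3, where Cu 1 is the single Cu library and is assumed to vary like the Control libraries, CD59, TSPAN14, STX3, CALR, HSPA5, ARPP19, CCNB1 and WEE2 were among the 22 list genes (18.03%) with a limma adjusted p under 0.05, beside 20.5% of all tested genes. Without Cu 1, WEE2 was the only such list gene (limma adjusted p = 0.0111), beside 2.18% of all tested genes, and there was none without Control 1 or Control 2.

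The median log2 fold changes were 0.34 for sperm-egg recognition and the tetraspanin web, 0.074 for cortical granule exocytosis, 0.13 for release and refilling of stored calcium, 0.12 for phosphoinositide supply and phospholipase C, and 0.069 for calmodulin signalling and the exit from metaphase II arrest, beside 0.16 over all tested genes. Without Cu 1 these medians were 0.042, -0.091, 0.13, 0.0077 and -0.12 in the same order, beside 0.0023 over all tested genes. Without Cu 3 they were 0.56, 0.22, 0.22, 0.35 and 0.42, beside 0.31. After upper-quartile scaling they were 0.15, -0.13, -0.066, -0.084 and -0.19, beside -0.058. The median of the sperm-egg list thus stayed above 0 in these settings, those of the other 4 lists turned negative with the scaling, and those of the cortical granule and calmodulin lists also did so without Cu 1.

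For sperm-egg recognition and the tetraspanin web, 2 of 18 tested genes passed an unadjusted limma p of 0.05, both higher in Cu, beside 5.58% of all tested genes. CD59, a membrane inhibitor of complement, had 106 FPKM in Control 1 and 127 in Control 2, against 334 in Cu 1 and 243 in Cu 3, a log2 fold change of 1.29 (SE 0.30, limma adjusted p = 0.631) that was 1.06 without Cu 1. Its Cu libraries were above its Control libraries, as in 5 of the 18 tested list genes and 25.4% of all tested genes. TSPAN14, a tetraspanin that guides the protease ADAM10 to the cell surface, had 0.33 and 1.44 FPKM in the Control libraries and 11.5 and 2.34 FPKM in the Cu libraries, a log2 fold change of 1.84 (SE 0.69) that was 0.89 without Cu 1, where its unadjusted limma p was 0.0652. Without a filter on low values the unadjusted limma p of TSPAN14 was 0.0812, so its call ended there too. ADAM10 itself had 8.51 FPKM in Control 1 and 9.83 in Control 2, against 7.69 in Cu 1 and 3.16 in Cu 3, a log2 fold change of -0.76 (limma adjusted p = 0.756), and was named after its values had been seen. The zona gene ZP4 had the highest mean of the list, with 755 and 1407 FPKM in the Control libraries and 734 and 954 FPKM in the Cu libraries.

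For cortical granule exocytosis, 1 of 24 tested genes was higher and 1 lower at an unadjusted limma p of 0.05, beside 5.58% and 1.43% of all tested genes. STX3, a syntaxin of the target membrane in vesicle fusion, had 116 FPKM in Control 1 and 142 in Control 2, against 68.9 in Cu 1 and 57.9 in Cu 3, a log2 fold change of -1.01 (SE 0.29, limma adjusted p = 0.641) that was -1.14 without Cu 1 and -0.35 by the authors' means. Its Cu libraries were below its Control libraries, as in 5 of the 24 tested list genes and 13.4% of all tested genes. UNC13D, a priming factor for granule release, was weakly expressed, with 0.05 and 0.39 FPKM in the Control libraries and 1.60 and 1.08 FPKM in the Cu libraries. Its log2 fold change was 0.94 (SE 0.34), and it was 0.78 without Cu 1 and 0.65 by the authors' means. UNC13D reached 1 FPKM only in the Cu libraries, so it passed the filter only through the group where it was high. Its call as a higher gene can therefore not be read as evidence of a rise. RAB11A, a small GTPase of recycling endosomes that takes part in granule transport to the cortex, had the highest level, with 346 and 340 FPKM in the Control pair and 404 and 424 FPKM in the Cu pair. RAB27A, which carries cortical granules, had 68.2 and 75.4 FPKM in the Control pair and 40.3 and 52.7 FPKM in the Cu pair, a log2 fold change of -0.63 with an unadjusted p of 0.088 by limma. It was named after its values had been seen.

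For release and refilling of stored calcium, 2 of 20 tested genes passed an unadjusted limma p of 0.05, both higher in Cu, beside 5.58% of all tested genes. CALR, the calcium-binding chaperone of the endoplasmic reticulum, had 42.0 FPKM in Control 1 and 41.4 in Control 2, against 123 in Cu 1 and 85.2 in Cu 3, a log2 fold change of 1.27 (SE 0.32, limma adjusted p = 0.631) that was 1.01 without Cu 1. HSPA5, the main chaperone of the same compartment, had 6.36 and 11.9 FPKM in the Control pair and 26.3 and 17.2 FPKM in the Cu pair, a log2 fold change of 1.19 (SE 0.44) that was 0.90 without Cu 1. In both genes the 2 Cu libraries were above the 2 Control libraries, as in 7 of the 20 tested list genes and 25.4% of all tested genes. The calcium pump ATP2A2, which refills the store, had 52.7 and 57.9 FPKM in the Control pair and 52.9 and 46.8 FPKM in the Cu pair, and TRPM7, a channel for calcium entry in eggs, had 7.87 and 5.98 FPKM in the Control pair and 6.29 and 8.34 FPKM in the Cu pair, with overlapping groups in both. These 2 were chosen after their values had been seen. TMCO1, a channel of the endoplasmic reticulum that lets excess calcium out, had the highest level of the list with 410 and 449 FPKM in the Control pair and 649 and 511 FPKM in the Cu pair.

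For phosphoinositide supply and phospholipase C, 0 of 24 tested genes passed an unadjusted limma p of 0.05, beside 7.01% of all tested genes. PITPNB, a transfer protein for phosphatidylinositol, had the highest mean level, with 73.2 FPKM in Control 1 and 83.2 in Control 2, against 63.4 in Cu 1 and 110 in Cu 3, for a log2 fold change of 0.094. PLCZ1, the phospholipase that sperm deliver to the egg, had 0.09 to 0.17 FPKM and was not tested. It was named after its values had been seen.

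For calmodulin signalling and the exit from metaphase II arrest, 3 of 36 tested genes were higher and 2 lower at an unadjusted limma p of 0.05. Over all tested genes the shares were 5.58% and 1.43%. WEE2, the oocyte kinase that inhibits CDK1 and acts downstream of CAMK2G at egg activation, had 618 FPKM in Control 1 and 916 in Control 2, against 356 in Cu 1 and 238 in Cu 3, a log2 fold change of -1.37 (SE 0.34, limma adjusted p = 0.631) that was -1.655 without Cu 1 and -0.75 by the authors' means. CCNB1, the cyclin of CDK1 that is degraded when the arrest ends, had 1666 and 1433 FPKM in the Control pair and 794 and 901 FPKM in the Cu pair, a log2 fold change of -0.87 (SE 0.24) that was -0.78 without Cu 1 and -0.37 by the authors' means. In both genes the Cu libraries lay below the Control libraries, as in 9 of the 36 tested list genes and 13.4% of all tested genes. ARPP19, a phosphatase inhibitor that keeps CDK1 substrates phosphorylated, had 6.96 and 9.39 FPKM in the Control pair and 41.6 and 15.4 FPKM in the Cu pair, a log2 fold change of 1.54 (SE 0.53) that was 0.85 without Cu 1 and 2.23 without Cu 3. SKP1, a subunit of the ubiquitin ligase that targets the arrest factor EMI2, had 275 and 321 FPKM in the Control pair and 502 and 487 FPKM in the Cu pair, a log2 fold change of 0.73 (SE 0.25) that was 0.71 without Cu 1 and 0.37 by the authors' means. FBXO43, which encodes EMI2, had 28.3 and 33.9 FPKM in the Control pair and 26.4 and 38.4 FPKM in the Cu pair with overlapping groups, and was named after its values had been seen. CALM2, one of the calmodulin genes, had the highest mean over the 4 libraries, although CCNB1 lay above it in the Control pair, and it had 1085 and 995 FPKM in the Control pair and 1390 and 2118 FPKM in the Cu pair, a log2 fold change of 0.72 (SE 0.29) that was 1.03 without Cu 1, 0.42 without Cu 3 and 0.42 by the authors' means. The unadjusted limma p of SKP1 and CALM2 rose to 0.239 and 0.346 after upper-quartile scaling, 0.218 and 0.323 after median-of-ratios scaling, 0.0795 and 0.0658 after quantile normalization and 0.0633 and 0.0939 without the variance trend, so both calls ended in these settings.

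**Figure D4:**
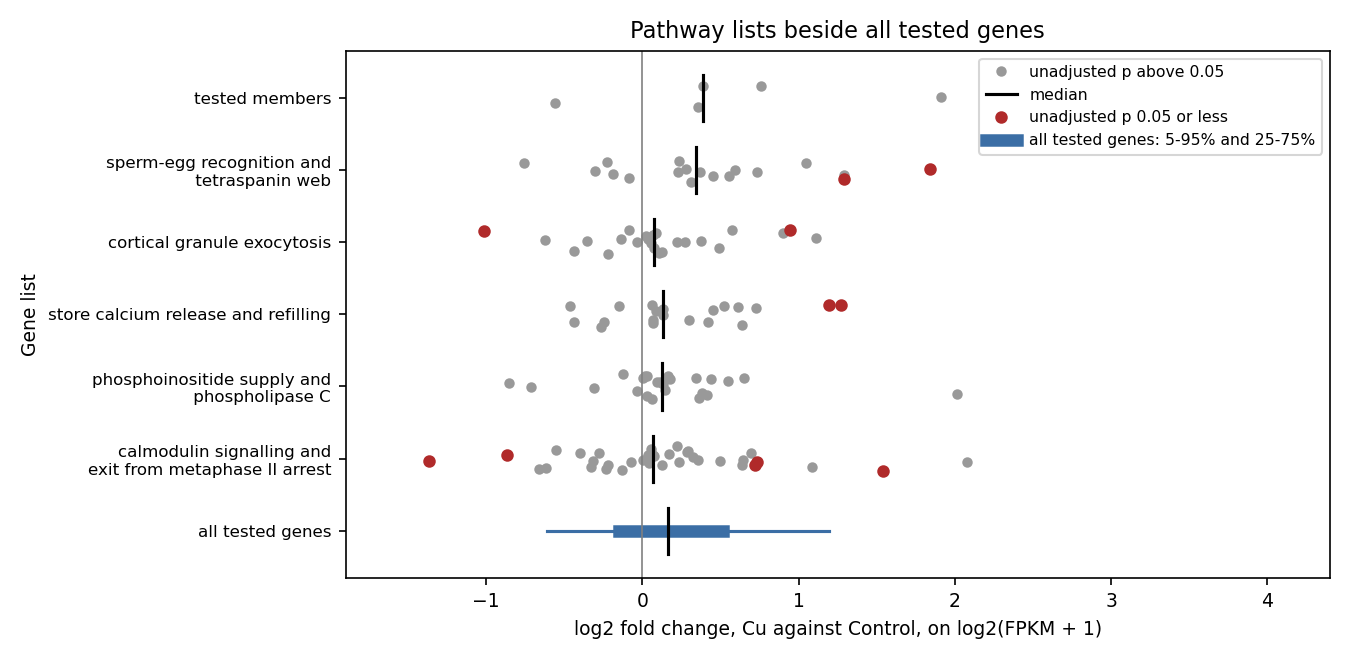
Log2 fold changes, Cu against Control, of the tested members and of the tested genes of the 5 lists, with 1 point a gene and the list median as a black line. The bar at the bottom gives the spread of all 8541 tested genes. Red points have an unadjusted p of 0.05 or less by limma (8 higher and 3 lower), none is among the members, and the list medians lie between 0.069 and 0.34 beside 0.16 for all tested genes.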

How the data were processed

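Libraries of 3 oocytes were amplified by Smart-seq2. The study's methods describe 3 samples for each group, and 2 libraries a group were analysed here. The deposited values are FPKM, rounded to 2 decimals, with the authors' mean for Control and Cu beside them. That mean appears to average 3 libraries a group by its decimals and carries no SD or n here. The study's methods name SOAPnuke, HISAT2, Bowtie2 and RSEM, while the submitters' processing notes name TopHat2 2.0.13, Cufflinks 2.2.1, Cuffnorm, Cuffdiff and the build Sscrofa11.1, and which of these made the table is not given in the sources used here. The table had 30684 rows, 16050 with values. Counts were not analysed, so the count test of the methods was not used. The depth is unknown: the lowest value above 0 is the rounding limit of 0.01 in every library, and no floor or counting interval is given.

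From the FPKM, log2(FPKM + 1) was tested for 8541 genes, those that reached 1 FPKM in 2 or more libraries, with limma 3.58.1 in R 4.3.3 (lmFit, eBayes with a variance trend, two-sided), with Benjamini-Hochberg adjustment over all of them. Fold changes on this scale understate the changes of low genes. The fit was run on simulated data with independent noise for each gene and library. No simulated library stood apart as Cu 1 does, so that check does not cover this feature of the data. Coordinates are those of whole genes in the RefSeq table of Sscrofa11.1, and all 8 identifiers matched. The members and lists were chosen with earlier results of these data known. Named were the 8 members, and from each list the gene with the highest mean FPKM and up to 2 genes a direction with the smallest unadjusted p of 0.05 or less, others being marked. The alternatives tried were a pseudocount of 0.1, other filters, 4 scalings, no variance trend, leaving out each library and, added after seeing the data, the authors' means.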

Additional observations from a re-analysis of the deposited data

How the results depend on the processing

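In every setting run, the 5 tested members stayed above limma's adjusted p of 0.05, except ASTL without Cu 3 (log2 fold change 3.36). The log2 fold change of CD81 turned to -0.014 without Cu 1 (0.72 without Cu 3), that of CAMK2G to 0.089 by the authors' means, that of ZP4 to 0.15 without Control 2 (-0.75 without Control 1) and to 0.00068 by the authors' means, and that of PITPNB to -0.17, -0.15 and -0.033 after upper-quartile scaling, median-of-ratios scaling and quantile normalization and to -0.295 without Cu 3 (0.48 without Cu 1). No paired analysis was possible because the groups share only replicate number 1. Genes with an unadjusted p of 0.05 or less numbered 477 higher and 122 lower in Cu. Leaving out each library gave 112 to 2368 higher and 15 to 590 lower genes, 0 to 1755 genes past an adjusted p of 0.05, 0 to 2 members and, for the 5 lists, 0 to 33 higher and 0 to 9 lower genes past an unadjusted p of 0.05. In these fits the lone library is assumed to vary like the other group. Without a filter the lower genes numbered 238, but of 15559 genes in place of 8541. Of the 8541, 303, 272 and 288 were lower after upper-quartile scaling, median-of-ratios scaling and quantile normalization. With these 3 scalings higher genes made up 54.0%, 58.0% and 55.6% of the calls in place of 79.6%. The lower list genes then numbered 6, 6 and 7 in place of 3. Genes whose Cu levels both exceeded the Control levels numbered 2168 of 8541, with 1379 after upper-quartile scaling and 1424 after quantile normalization. Without a filter they numbered 3499, again of 15559 genes, so this count is not comparable with the others. Those below numbered 1145, and 1966, 1876 and 1949 after the 3 scalings, and with 1 library left in a group this count was not made. The median over all tested genes was -0.058 after upper-quartile scaling. The median of the stored calcium list was 0.20 with a pseudocount of 0.1, -0.066, -0.057 and -0.044 after the 3 scalings and 0.087 to 0.43 without single libraries. The phosphoinositide list gave -0.084, -0.069 and -0.076 after the 3 scalings and 0.0077 to 0.35 without single libraries, and the calmodulin list -0.12 to 0.42. The cause of these shifts was not tested. The unknown depth limits above all what can be said of CD9, STIM1, ORAI1 and IZUMO1R.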
